A study of Mus musculus with 36 samples.

Results

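The perilipins and 4 of their partners in handling neutral lipid were followed in the cerebellum and hippocampus of mice with 2, 1 or 0 intact Pogz alleles. The 9 genes, of 24421 in each count table, are Plin1, Plin2, Plin3, Plin4, Plin5, Pnpla2, Lipe, Lpl and Cd36. The set was chosen by gene name after earlier results on these samples had shown lower Plin4 and higher Cd36 with Pogz loss in both tissues, so the genotype differences of the 9 genes are given below as a description, with no p-value. How many of them passed the threshold of the fit over all genes is printed only beside the share of all genes that did, and supports nothing. POGZ is a chromatin protein with zinc fingers. Adult C57Bl/6 mice were of 3 genotypes with 3 males and 3 females each: control mice, whose floxed Pogz alleles (Pogzfl/fl) were intact because they carry no Cre, cKO+/- mice (NesCre/+; Pogzfl/+) and cKO-/- mice (NesCre/+; Pogzfl/fl). Cre is driven by Nestin and deletes Pogz in neural progenitors and the cells derived from them, and cells of other origin in these tissues, such as endothelium and microglia, are outside the intended deletion. Since the controls lack Cre, an effect of the transgene itself and of Pogz loss cannot be told apart in any comparison with controls. The cKO+/- and cKO-/- mice both carry Cre and do not differ from each other in it.

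Poly(A) RNA was sequenced from both tissues of all 18 animals, with total counts of 21421850 to 32544929 per cerebellar library and 17609321 to 45544188 per hippocampal library. The hippocampal cKO-/- library of Sample_1160 stood apart, with a correlation of 0.883 to the tissue's median profile where the other 35 libraries were at 0.978 or above, and hippocampal values are given for the remaining 17 libraries unless stated. Pogz itself was at 89.6 to 130 CPM (counts scaled to a common library size with TMM factors) in control and 57.0 to 74.0 CPM in cKO-/- cerebellum, and at 89.0 to 92.8 and 58.7 to 67.7 CPM in hippocampus, with no overlap, although reads outside the deleted exons still count. The tissue labels held, since 7 cerebellar markers summed to at least 3504 CPM in every cerebellum and at most 284 CPM in any hippocampus. All controls have animal numbers from Sample_1120 to Sample_1219, whereas 3 cKO+/- and 4 cKO-/- animals are numbered outside that range, and values within the range are given where the difference matters.

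Cells store triglyceride and sterol esters in lipid droplets, which perilipins coat. Plin1 and Plin5 control access of lipases to the core, Plin2 and Plin3 are widely expressed coats, and Plin4 binds nascent droplets. ATGL, made from Pnpla2, and hormone-sensitive lipase, made from Lipe, release fatty acids from the droplet one after the other. Lipoprotein lipase, made from Lpl, acts outside the cell on circulating or secreted lipoproteins, and CD36 takes up long-chain fatty acids and oxidized lipoproteins at the surface of endothelial cells and phagocytes. In brain, droplets are found mainly in glia and ependyma, and fatty acid use by neurons is limited. In bulk tissue, fewer cells of a type and less RNA per cell cannot be told apart.

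Plin4, Plin5 and Plin3 lie in one cluster on chromosome 17, at chr17:56100591-56109802, chr17:56111601-56117548 and chr17:56278962-56290511 (GRCm38, all on the minus strand). Plin4 starts only 7746 bases from Plin5, and its span overlaps Hdgfrp2 on the plus strand, so that without strand information reads of the overlap could belong to either gene. Cd36 is at chr5:17781690-17888959 (minus strand), Pnpla2 at chr7:141455188-141460743 (plus), Lipe at chr7:25379527-25395987 (minus, overlapping 4732471J01Rik), Lpl at chr8:68880555-68906932 (plus), Plin2 at chr4:86656565-86670059 (minus) and Plin1 at chr7:79721164-79732776 (minus). RefSeq promoters were on file for 8 of the 9 genes. The 250 bases upstream of the start are shown for the 4 genes that were past the FDR threshold of the genotype fit in the same direction in both tissues, with matches to 7 motifs in capitals (GRCm38.p6, 5′ to 3′ on the gene's strand).
Plin4, chr17:56109783-56110032: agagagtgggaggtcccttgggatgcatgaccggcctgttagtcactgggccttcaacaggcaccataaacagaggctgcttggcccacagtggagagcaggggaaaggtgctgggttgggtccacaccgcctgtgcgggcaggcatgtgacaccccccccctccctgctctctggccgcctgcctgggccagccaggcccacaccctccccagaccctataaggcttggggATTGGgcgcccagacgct
Plin3, chr17:56290512-56290761: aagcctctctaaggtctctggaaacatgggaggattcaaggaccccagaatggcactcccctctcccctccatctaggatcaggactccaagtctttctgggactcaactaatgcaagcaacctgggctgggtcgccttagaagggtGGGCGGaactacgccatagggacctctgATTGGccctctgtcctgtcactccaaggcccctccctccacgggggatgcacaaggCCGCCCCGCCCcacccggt
Pnpla2, chr7:141454938-141455187: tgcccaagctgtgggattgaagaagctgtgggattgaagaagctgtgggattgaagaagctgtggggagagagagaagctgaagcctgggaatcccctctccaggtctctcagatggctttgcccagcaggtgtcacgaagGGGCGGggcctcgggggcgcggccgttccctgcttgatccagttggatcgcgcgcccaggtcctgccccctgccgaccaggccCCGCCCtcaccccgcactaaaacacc
Cd36, chr5:17835897-17836146: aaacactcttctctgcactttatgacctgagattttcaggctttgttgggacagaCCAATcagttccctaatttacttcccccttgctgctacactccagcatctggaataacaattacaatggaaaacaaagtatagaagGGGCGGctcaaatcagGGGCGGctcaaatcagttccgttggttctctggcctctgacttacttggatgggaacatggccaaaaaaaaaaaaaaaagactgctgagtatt
The motifs, searched on both strands, were the CCAAT box (CCAAT, in 33.8% of 32851 promoters of this length), the GC box (GGGCGG, 32.7%), the E-box (CACGTG, 6.02%), the TATA box (TATAAA, 12.4%), the glucocorticoid hexamer (AGAACA, 16.1%), the full glucocorticoid response element (0.00913%) and the PPAR response element (0.0335%). The hexamer lies within the full element by construction. Only CCAAT and GC boxes matched in the 4 windows. Plin4 has 1 CCAAT box, which lies 18 bases before the start on the strand opposite the gene's and so reads ATTGG in the window, and no GC box. Plin3 has 1 CCAAT box and 3 GC boxes, of which the neighbouring pair share a base, Cd36 has 1 CCAAT box and 2 GC boxes, and Pnpla2 has 2 GC boxes. The Cd36 window belongs to a RefSeq start 53063 bases inside the span that the count table gives the gene. The Plin4 window belongs to a start 20 bases inside that gene's span, so the Plin4 CCAAT box lies within the span. GC content was 65.2% for Plin4, 60.0% for Plin3, 63.2% for Pnpla2 and 43.2% for Cd36.

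In control mice, the order of the 9 genes by level per unit of length differed between the tissues. In cerebellum, Pnpla2 led with 12 ± 1.3 FPKM (SD, n = 6), followed by Plin3 with 11 ± 1.1 and Plin2 with 8.2 ± 1.0, and the ranges of each of these neighbours overlapped. Lipe (3.95 ± 0.58 FPKM) and Plin4 (1.34 ± 0.55 FPKM) came next, each apart from its neighbours. Lpl, Cd36, Plin5 and Plin1 closed the order at 0.20, 0.15, 0.092 and 0.019 FPKM with overlapping ranges. In hippocampus, Lpl led with 14.4 ± 2.29 FPKM and lay above all other members. Plin3 (8.70 ± 1.72) and Pnpla2 (7.81 ± 0.36) overlapped, Lipe (3.0 ± 0.22) overlapped Plin2 (2.63 ± 0.66), and Plin2 overlapped Plin4 (1.73 ± 0.81 FPKM). Plin5 stood alone at 0.64 FPKM, and Cd36 (0.24) overlapped Plin1 (0.12 FPKM).

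**Figure D1:**
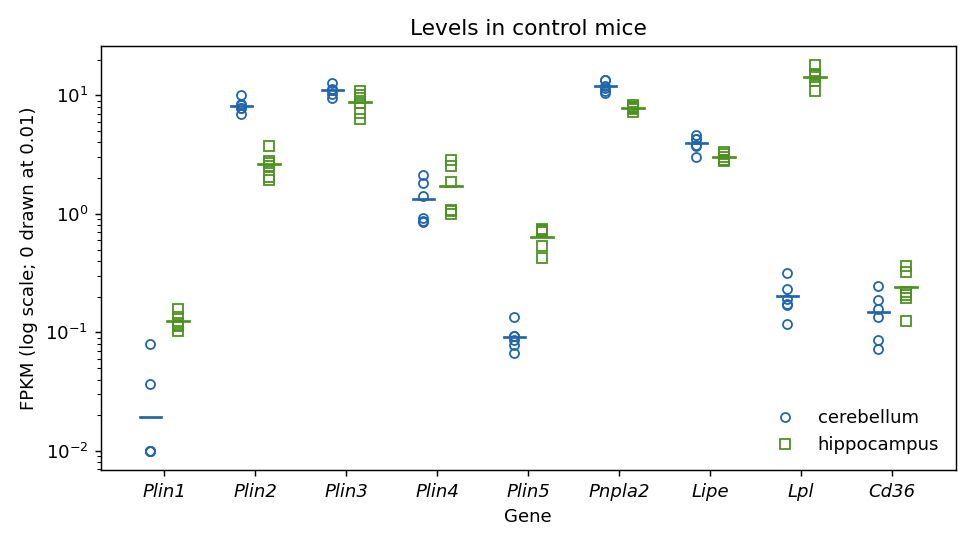
FPKM of the 9 genes (log axis, 0 drawn at 0.01) in the cerebellum (circles) and hippocampus (squares) of the 6 control mice, 1 point per library and a bar at the mean. Lpl is the gene whose tissues lie farthest apart, at 0.20 and 14.4 FPKM.

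How these levels differ between the tissues does not depend on how the genes were chosen, and was tested in the controls for the 6 members that passed the filter (Plin1, Plin5 and Cd36 did not). Plin2, Pnpla2 and Lipe were higher in cerebellum, and Lpl, the lipase that acts on lipoproteins, was lower by a wide margin. Lpl was at 0.48, 0.74 and 1.29 CPM (lowest, median, highest) in cerebellum and at 44.3, 58.7 and 72.6 CPM in hippocampus, which do not approach each other. The difference was -6.26 ± 0.19 on the log2 scale (SE, adjusted p = 3.53e-12, edgeR), 76.4-fold. Lpl passed the filter of 1 CPM through its hippocampal libraries, as its cerebellar median was 0.74 CPM. Its call as lower in cerebellum thus rests on a gene kept for its hippocampal level. Plin2 was at 13.1, 15.1 and 18.8 CPM in cerebellum against 3.66, 4.92 and 7.11 CPM in hippocampus, a log2 difference of 1.55 ± 0.15 (adjusted p = 6.00e-07). The 2 intracellular lipases differed less, with 0.53 ± 0.07 for Pnpla2 (adjusted p = 1.91e-05) and 0.30 ± 0.09 for Lipe (adjusted p = 0.0102). Thus 3 of 6 tested members were higher in cerebellum, where 36.7% of 14224 genes passed in that direction, and 1 was lower, where 35.2% did. Plin3 and Plin4 did not pass in this comparison, with a difference of 0.25 ± 0.12 for Plin3 (adjusted p = 0.0766) and -0.46 ± 0.27 for Plin4 (adjusted p = 0.149). With the animal as replicate block both passed, at 0.27 ± 0.10 (adjusted p = 0.0385) and -0.43 ± 0.08 (adjusted p = 0.00125). Leaving out Sample_1129 also brought both past the threshold, with adjusted p = 0.0333 for Plin3 and 0.0425 for Plin4.

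Plin4 was the member with the lowest level in Pogz-deficient mice relative to control in both tissues. In cerebellum its lowest, median and highest values were 4.89, 6.68 and 12.3 CPM in controls, 2.20, 5.15 and 9.55 CPM in cKO+/- and 1.30, 1.79 and 2.65 CPM in cKO-/- mice. Every cKO-/- library lay below every control, while cKO+/- libraries spanned both groups. In hippocampus the controls had 5.77, 8.48 and 16.3 CPM and the cKO+/- mice 1.71, 4.75 and 12.4 CPM. The 5 hippocampal cKO-/- libraries were at 1.13, 1.95, 2.26, 2.33 and 3.0 CPM, all below the lowest control, and that of Sample_1160 was at 2.0 CPM. The mean in cKO-/- mice was 24.5% of control in cerebellum and 21.4% in hippocampus. Per allele lost, the log2 change was -0.98 ± 0.18 (SE) in cerebellum and -1.01 ± 0.21 in hippocampus.

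Cd36 went the other way. In cerebellum it was at 0.28, 0.57 and 0.96 CPM in controls, 0.54, 0.85 and 1.35 CPM in cKO+/- and 0.93, 1.40 and 2.07 CPM in cKO-/- mice, and the lowest cKO-/- library (0.933 CPM) was just below the highest control (0.962 CPM). These values rest on 8 to 28 counts per control library and 28 to 61 per cKO-/- library. In hippocampus the gene was at 0.49, 0.84 and 1.43 CPM in controls and at 1.92, 2.47 and 5.37 CPM in cKO+/- mice. The 5 cKO-/- libraries were at 2.44, 2.93, 3.77, 4.83 and 5.73 CPM and the library of Sample_1160 at 4.05 CPM. The cKO-/- mean was 2.52 times that of controls in cerebellum and 4.19 times in hippocampus. The slope per allele lost was 0.69 ± 0.13 and 1.01 ± 0.18 on the log2 scale.

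**Figure D2:**
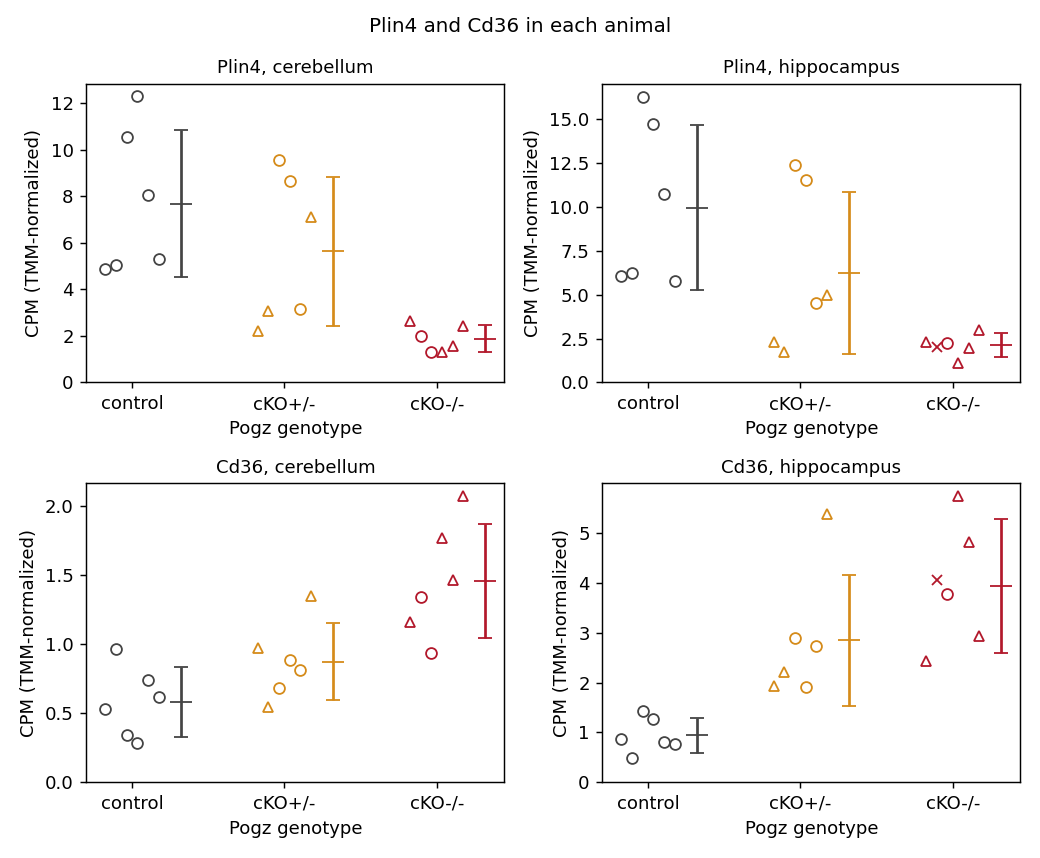
CPM of Plin4 (top) and Cd36 (bottom) in each cerebellar (left) and hippocampal (right) library by genotype, with the mean and SD at the right of each group. Circles are animals numbered within the control range, triangles animals outside that range, and the cross is the hippocampal library of Sample_1160, which is not in the mean. Plin4 in cKO-/- mice stays at or below 3.0 CPM while no control is under 4.89 CPM, and hippocampal Cd36 in cKO-/- mice starts at 2.44 CPM, above the highest control at 1.43 CPM.

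Among the other coat genes, Plin3 was lower in cKO-/- mice. Plin2 averaged 118% of control in cKO-/- cerebellum and 140% in cKO-/- hippocampus. Plin1 was scarcely detected in either tissue, and Plin5 was scarcely detected in cerebellum. Cerebellar Plin3 was at 20.6, 24.0 and 27.7 CPM in controls, 17.3, 23.5 and 35.8 CPM in cKO+/- and 9.28, 13.6 and 23.2 CPM in cKO-/- mice, so that 1 cKO-/- library lay within the control range. In hippocampus the controls had 13.7, 19.3 and 23.2 CPM, the cKO+/- mice 12.6, 14.0 and 16.3 CPM and the cKO-/- mice 6.98, 7.01, 7.56, 9.07 and 15.4 CPM. The cKO-/- mean was 59.8% and 49.0% of control, and the log2 slope -0.37 ± 0.11 and -0.50 ± 0.09. Plin2 had medians of 15.1, 17 and 17.5 CPM over control, cKO+/- and cKO-/- cerebellum and of 4.92, 4.50 and 6.38 CPM in hippocampus, with overlapping ranges and slopes of 0.12 ± 0.07 and 0.24 ± 0.11. Within the control number range cerebellar Plin2 averaged 22.4 CPM in 2 cKO-/- and 20.5 CPM in 3 cKO+/- animals, against 15.5 CPM in controls. Outside it the mean was 16.2 CPM in 4 cKO-/- and in 3 cKO+/- animals. A covariate for the range brought the Plin2 slopes to 0.23 ± 0.07 and 0.34 ± 0.13. Plin5, a coat of oxidative tissues, passed the filter only in hippocampus, with means of 1.31, 1.35 and 0.95 CPM and a slope of -0.18 ± 0.10. Its cerebellar libraries held 1 to 18 counts each. Plin1, the coat of fat cells, passed in neither tissue, with at most 4 counts in any cerebellar library and 15 in any hippocampal library other than that of Sample_1160, which had 21.

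The intracellular lipases differed little between genotypes. Pnpla2 was at 28.5, 31.8 and 36.9 CPM in control, 24.8, 29.4 and 31.3 CPM in cKO+/- and 23.9, 26.6 and 28.7 CPM in cKO-/- cerebellum, and the cKO-/- range reached just past the lowest control. In hippocampus the means were 21.2 ± 0.97 (SD), 19.1 ± 1.77 and 16.7 ± 2.90 CPM. The slope was -0.15 ± 0.04 and -0.17 ± 0.04, and with all 18 hippocampal libraries it was -0.07 ± 0.07, as the library of Sample_1160 held 32.9 CPM. Lipe had slopes of -0.01 ± 0.06 and -0.04 ± 0.05, with cKO-/- means of 98.9% and 93.4% of control.

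Lpl, scarce in cerebellum, was at 0.48, 0.74 and 1.29 CPM in controls, 0.72, 1.29 and 3.06 CPM in cKO+/- and 0.80, 1.57 and 4.67 CPM in cKO-/- mice, with a slope of 0.74 ± 0.23. The mean was 2.94 CPM in the 4 cKO-/- and 2.21 CPM in the 3 cKO+/- animals outside the control number range, against 1.05 CPM in 2 and 1.07 CPM in 3 animals within it. The ranges overlapped, since Sample_1120 within it held 1.77 CPM, above the highest control, and Sample_938 outside it held 0.80 CPM. A covariate for the range brought the slope to 0.25 ± 0.23. In hippocampus, where it is the leading member, Lpl was at 65.8, 67.1, 70.0, 70.2 and 76.5 CPM in cKO-/- mice, within or just above the control range, and the slope was 0.12 ± 0.05. The library of Sample_1160 held 141.5 CPM.

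**Figure D3:**
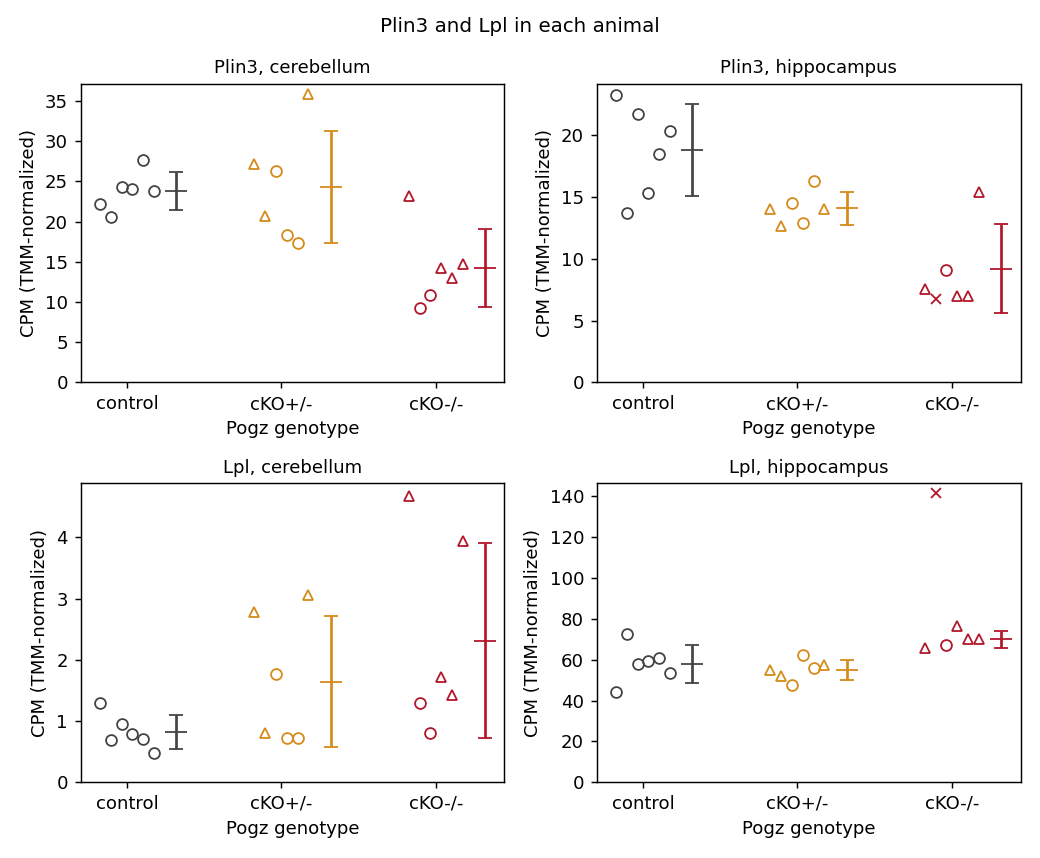
CPM of Plin3 (top) and Lpl (bottom) by genotype in cerebellum (left) and hippocampus (right), drawn as for Plin4 and Cd36. Most cKO-/- points of Plin3 sit below the controls, with the highest at 23.2 CPM in cerebellum and 15.4 CPM in hippocampus, and the 4 highest cerebellar Lpl values are triangles, although other triangles lie among the circles, as low as 0.80 CPM.

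Of the 7 members that passed the filter in cerebellum, Cd36 and Lpl were called higher at an FDR of 0.05 with allele loss (7.11% of 14027 genes were) and Plin3, Plin4 and Pnpla2 lower (6.55%). Of the 8 in hippocampus, Cd36 was called higher (2.09% of 14339 genes) and Plin3, Plin4 and Pnpla2 lower (2.35%). With all 18 hippocampal libraries Cd36 (0.809%), Plin3 and Plin4 (0.907%) remained called and Pnpla2 did not. Non-overlap of control and cKO-/- libraries was met below the controls by Plin4 in cerebellum (1.9% of genes) and by no member above them (2.67%), and in hippocampus by Plin4 below (2.12%) and Cd36 above (1.53%). The same was so with 18 libraries (1.22% and 0.935%). Since Plin4 and Cd36 were selected on this contrast, these counts describe the choice. Cerebellar Cd36 passed the filter only through libraries of Pogz-deficient mice, as no control exceeded 0.962 CPM. The control medians of hippocampal Cd36 (0.84 CPM) and cerebellar Lpl (0.74 CPM) were also below the filter's 1 CPM. Calls and later tests of Cd36 and Lpl carry that limit.

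**Figure D4:**
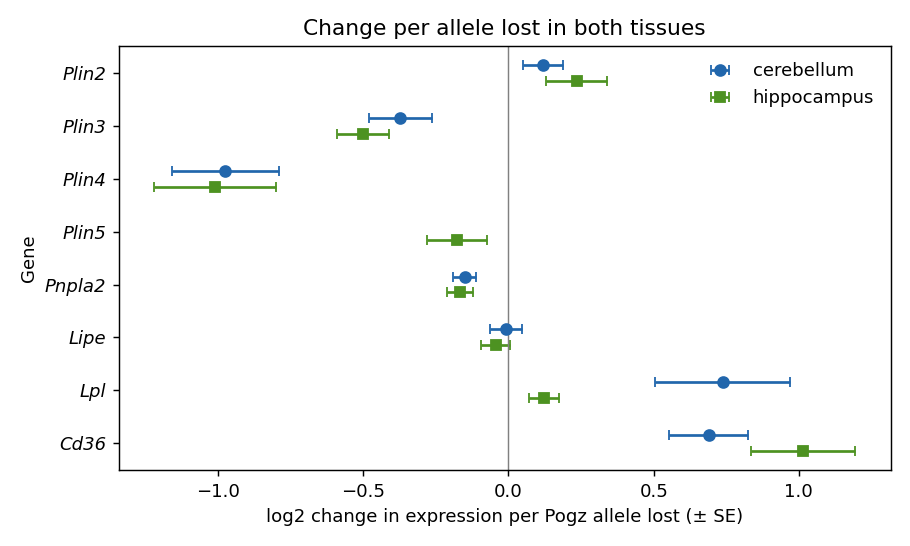
Log2 change per Pogz allele lost with its SE for the members that passed the filter, in cerebellum (circles, 18 libraries) and hippocampus (squares, 17 libraries). Plin4 lies near -1 and Cd36 between 0.69 and 1.01 in both tissues, while Lpl is at 0.74 in cerebellum and 0.12 in hippocampus.

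Within the number range that holds every control, Plin4 averaged 1.67 CPM in 2 cKO-/- cerebella and 7.13 CPM in 3 cKO+/- cerebella against 7.69 CPM in the controls, and the cKO+/- animals outside it averaged 4.14 CPM. In hippocampus the cKO+/- means were 9.48 CPM within and 2.99 CPM outside the range, against 9.96 CPM in controls. Given a covariate for the range, the slope of Plin4 was -0.94 ± 0.23 in cerebellum and -0.61 ± 0.25 in hippocampus. That of Cd36 was 0.57 ± 0.16 and 0.89 ± 0.22, with 2.51 CPM in the 3 hippocampal cKO+/- libraries within the range. Plin3 had -0.58 ± 0.11 and -0.49 ± 0.12. Under this covariate Plin3 and Plin4 in cerebellum were past the FDR threshold, where 140 of 14027 genes were called lower and 168 higher. No other member was in either tissue, with 28 of 14339 genes called lower and 40 higher in hippocampus. This again describes the choice. What the animal numbers stand for is not stated, and their part in these differences was not tested beyond this covariate.

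Whether the dose response departed from a straight line was tested by setting cKO+/- against the midpoint of control and cKO-/-. No member was called in cerebellum, where 0.0214% of genes were, or in hippocampus, where 0% were (edgeR), and DESeq2 called none either. At an unadjusted p under 0.05 there were 1 member in cerebellum and 3 in hippocampus. Plin3 in cKO+/- cerebellum was 0.40 ± 0.16 above the midpoint, with an adjusted p of 0.9997. In hippocampus Cd36 was 0.54 ± 0.25 above (adjusted p = 0.50), or 0.25 above without Sample_1433, Plin2 was -0.38 ± 0.17 and Lpl -0.21 ± 0.08 (both with adjusted p = 0.484). For Plin4 the departure was 0.54 ± 0.27 in cerebellum and 0.31 ± 0.34 in hippocampus, so its interval of 2 SE runs from -0.01 to 1.08 and from -0.36 to 0.99.

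The allele slopes of the 2 tissues were compared in one fit, in which 1.65% of 14870 genes passed. None of the 8 members tested did, and 1, Lpl, had an unadjusted p under 0.05, with a slope 0.62 ± 0.22 higher in cerebellum (adjusted p = 0.163), and 0.62 ± 0.26 with the animal as replicate block (adjusted p = 0.200). The difference was 0.05 ± 0.30 for Plin4, with an interval of 2 SE from -0.55 to 0.64, and -0.33 ± 0.24 for Cd36, with an interval from -0.81 to 0.15. That fit did not pair the 2 tissues of an animal. With the animal as replicate block the differences were 0.10 ± 0.12 for Plin4 (adjusted p = 0.707, edgeR) and -0.35 ± 0.24 for Cd36 (adjusted p = 0.451).

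Females and males were compared over the genotypes. No member was called in cerebellum (0.0499% of genes) or hippocampus (0.907%), with edgeR or with DESeq2, and at an unadjusted p under 0.05 there were 0 and 2. Both of the latter were perilipins of the chromosome 17 cluster in hippocampus, Plin4 with a female excess of 0.83 ± 0.32 (adjusted p = 0.202) and Plin5 with 0.47 ± 0.16 (adjusted p = 0.155) on the log2 scale. Plin4 in cerebellum had 0.56 ± 0.28 (adjusted p = 0.9999). No member's allele slope was called different between the sexes in cerebellum (0% of genes) or hippocampus (0%) by edgeR or DESeq2. Only Cd36 in cerebellum had an unadjusted p under 0.05, with a slope 0.69 ± 0.23 steeper in females (adjusted p = 0.893).

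Plin4 varied widely among animals of a genotype, and this variation was shared between the tissues. Deviations of log2 CPM from the fitted sex and genotype means were taken in both tissues of the 17 animals and correlated, a measure that the choice of genes did not use. For Plin4 Pearson's r was 0.858 (two-sided permutation p = 5.00e-05, animals permuted within genotype) and Spearman's rho 0.836 (p = 0.000320). Without the 2 animals farthest from the median, r was 0.899. Within the number range that holds the controls r was 0.893 (n = 10), outside it 0.891 (n = 7), and with Sample_1160 added it was 0.857 over 18 animals. Of 13587 genes tested in both tissues, 0.140% had an r at least as large, and the median was 0.175. The other 6 members measured had r between -0.22 (Lpl) and 0.40 (Lipe) and permutation p of 0.115 or more. Over the 7 relations the Benjamini-Hochberg adjusted permutation p of Plin4 was 0.00035 for r and 0.00224 for rho. Controls illustrate the spread: Sample_1170 and Sample_1172 held 10.6 and 12.3 CPM in cerebellum and 16.3 and 14.7 CPM in hippocampus, and Sample_1129 and Sample_1155 held 4.89 and 5.05 CPM in cerebellum and 6.08 and 6.22 CPM in hippocampus.

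**Figure D5:**
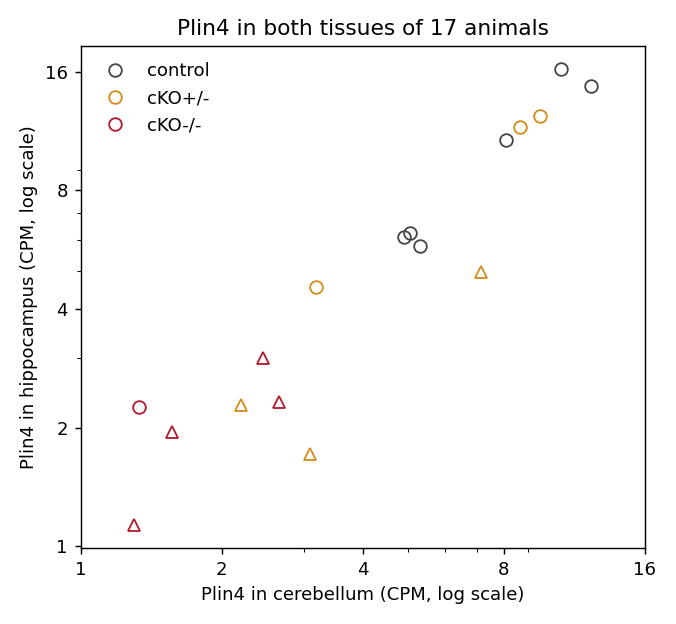
Plin4 in the cerebellum (horizontal) and hippocampus (vertical) of the same 17 animals, in CPM on log axes, coloured by genotype, with circles for animals numbered within the control range and triangles for the others. Animals high in one tissue are high in the other, and after sex and genotype means are taken out the correlation is 0.858.

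The genes most like Plin4 over the libraries, ranked by the smaller of the 2 tissues' Pearson r among 13580 genes outside the set, were Tmem52 (0.88 in cerebellum, 0.89 in hippocampus), Sdc4 (0.88, 0.89), Hif3a (0.88, 0.93), Mertk (0.86, 0.84) and Ramp2 (0.83, 0.87), over 18 and 17 libraries. After sex and genotype means were taken out, Mfsd2a (0.73, 0.87), Sdc4 (0.71, 0.73), Tmem52 (0.60, 0.72), Cdh19 (0.76, 0.60) and Ramp2 (0.59, 0.77) led, so 3 genes were in both groups of 5. Sdc4 is a cell surface proteoglycan, Mertk a phagocytic receptor of glia, and Mfsd2a the transporter of lysophospholipids at the blood-brain barrier. For Cd36 they were A730017C20Rik (0.83, 0.83), Dach2 (0.79, 0.86), Cyp2j6 (0.79, 0.81), Snrpn (0.78, 0.92) and Prdx4 (0.78, 0.77), and after sex and genotype Sult2b1 (0.66, 0.62), Armcx6 (0.62, 0.67), Baiap3 (0.60, 0.77), Ndufaf7 (0.60, 0.83) and Tal1 (0.60, 0.63). These coefficients pool the genotypes in the first ranking, and no gene was in both groups of 5 for Cd36.

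Lists of other lipid pathway genes, and a separate list of glucocorticoid-induced genes, were read in the same genotype fits. In these fits 13.7% of all genes tested were called in either direction in cerebellum, 4.44% in hippocampus and 1.72% with 18 hippocampal libraries. Of 16 glucocorticoid-induced genes, all tested, 0 rose and 7 fell in cerebellum (6.55% of all genes fell) and 0 rose and 8 fell in hippocampus (2.35%), with medians of -0.176 and -0.142 per allele lost against 0.001 and 0.002 over all genes. Largest were Hif3a (-0.91 ± 0.15, adjusted p = 0.000552), a hypoxia-inducible factor subunit, Zbtb16 (-0.57 ± 0.16, adjusted p = 0.0237) and Map3k6 (-0.56 ± 0.11, adjusted p = 0.00247) in cerebellum, and Hif3a (-0.79 ± 0.19, adjusted p = 0.0211), Map3k6 (-0.52 ± 0.08, adjusted p = 0.000862) and Fkbp5 (-0.42 ± 0.06, adjusted p = 0.000373), which encodes a co-chaperone of the glucocorticoid receptor, in hippocampus. With 18 hippocampal libraries 3 fell (Fkbp5, Map3k6 and Hif3a), where 0.907% of all genes did. Over the libraries, with the genotypes pooled, 8 of the 16 genes in cerebellum and 7 in hippocampus had an r above 0.5 with Plin4. After sex and genotype means were taken out 4 did in each tissue, with medians over the list of 0.19 and 0.084 against -0.013 and -0.007 over all genes. These were Mt2 (0.666), Sult1a1 (0.59), Hif3a (0.579) and Mt1 (0.533) in cerebellum and Fkbp5 (0.837), Hif3a (0.832), Sult1a1 (0.706) and Zbtb16 (0.588) in hippocampus. Other genes of the list ran the other way, with an r below -0.5 for Errfi1 (-0.51) in cerebellum and Ddit4 (-0.581) and Dusp1 (-0.533) in hippocampus. The list was fixed with the lower level of Plin4 known.

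Of 11 tested genes for droplet assembly and growth, 2 rose in cerebellum (7.11% of all genes rose there), Spg20 (0.16 ± 0.05, adjusted p = 0.0263) and Fitm2 (0.14 ± 0.04, adjusted p = 0.0431), which helps droplets bud, and 0 changed in hippocampus. Of 7 partners of lipolysis, 2 rose and 1 fell in cerebellum, where 7.11% and 6.55% of all genes did. G0s2, an inhibitor of ATGL, had a slope of -0.25 ± 0.06 (adjusted p = 0.00794), Abhd5, the coactivator of ATGL, was higher by 0.12 ± 0.04 (adjusted p = 0.0492) and Abhd6 by 0.08 ± 0.03 (adjusted p = 0.0390), and in hippocampus 0 changed. Of 20 genes for fatty acid and lipoprotein uptake, 4 rose in cerebellum (Fabp7, Acsl3, Acsl6 and Acsl4), where 7.11% of all genes did. In hippocampus 1 rose and 1 fell, where 2.09% and 2.35% of all genes did. Fabp7, the fatty acid binding protein of radial glia and astrocytes, went from 41.9 ± 12.3 CPM (SD) in control to 81.5 ± 22.1 CPM in cKO-/- cerebellum (0.49 ± 0.09 per allele, adjusted p = 0.00173) and from 17.8 ± 2.10 to 42.9 ± 6.72 CPM in hippocampus (0.63 ± 0.07, adjusted p = 2.65e-05). Slc27a3, an acyl-CoA synthetase of the fatty acid transport family, fell in hippocampus from 14.6 ± 1.47 to 7.54 ± 1.57 CPM (-0.46 ± 0.07, adjusted p = 0.000875). Of 14 genes of triglyceride synthesis, 0 changed in cerebellum and Dgat2, which makes the final ester bond, fell in hippocampus (-0.23 ± 0.06, adjusted p = 0.0212), a call absent with 18 libraries. In hippocampus 2.35% of all genes fell. Of 21 PPAR and fatty acid oxidation genes, 2 rose (Acot1, 0.36 ± 0.08, adjusted p = 0.0101, and Ppargc1a, 0.17 ± 0.05, adjusted p = 0.0421) and 1 fell (Ucp2, -0.56 ± 0.08, adjusted p = 0.000285) in cerebellum, where 7.11% and 6.55% of all genes did.

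Of 20 other genes starting within 150 kb of the perilipin cluster, 3 of 15 tested were called in cerebellum (13.7% of all genes were) and 2 of 17 in hippocampus (4.44%). Sh3gl1, an endophilin, was the 1 called in both, lower by -0.16 ± 0.05 and -0.14 ± 0.03. Hdgfrp2, which overlaps Plin4, had -0.16 ± 0.05 in cerebellum (adjusted p = 0.0334) and -0.10 ± 0.04 in hippocampus (adjusted p = 0.141), against -0.98 and -1.01 for Plin4. Cd36 had 1 neighbour in that distance, which was not tested.

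Markers of cells that express these genes were read beside them. For the adipocyte, the main user of Plin1 and Plin4, none of 7 markers passed the filter, and their sum stayed between 0.44 and 2.39 CPM in every library, with no gap between genotypes. Endothelial markers, of a cell type that carries CD36, were called higher for 5 of 10 genes in hippocampus (Pecam1, Tek, Kdr, Cdh5 and Itm2a), where 2.09% of all genes were, and for 1 of 10 with 18 libraries (0.809%), and their sum was 178 to 206 CPM in controls and 204 to 319 CPM in 5 cKO-/- libraries, with a median slope of 0.26 beside 1.01 for Cd36. In cerebellum 0 of 10 rose and 1 fell, with sums of 317 to 390 and 322 to 415 CPM, where the slope of Cd36 was 0.69. Microglial markers, of phagocytes that express Lpl, rose for 3 of 10 genes in cerebellum, where 7.11% of all genes rose (154 to 167 CPM in controls, 150.5 to 282 CPM in cKO-/- mice) and for 0 in hippocampus (402 to 530 and 423 to 496 CPM). Meningeal fibroblast markers rose for 5 of 6 genes in cerebellum (102 to 138 and 124 to 252 CPM) and 1 of 6 in hippocampus (34.2 to 106 and 64.2 to 178 CPM), and astrocyte markers for 4 of 7 in cerebellum (3096 to 3953 and 3858 to 5073 CPM) and 1 of 7 in hippocampus (3927 to 5599 and 4265 to 5143 CPM). Among perivascular macrophage markers 1 of 4 tested rose in cerebellum (Mrc1) and 0 of 3 in hippocampus. Their cerebellar sums were 9.36 to 13.3 CPM in controls and 11.1 to 24.3 CPM in cKO-/- mice. Oligodendrocyte markers rose for 2 of 8 genes in cerebellum (Cnp and Ermn) and 0 in hippocampus. Mural cell markers rose for 0 of 8 genes in cerebellum and 1 in hippocampus (Rgs5). Of all genes, 7.11% rose in cerebellum and 2.09% in hippocampus. Of 8 choroid plexus markers, 6 were tested in cerebellum and 7 in hippocampus, and none was called. Their median slopes were 0.856 and 0.429, against 0.001 and 0.002 over all genes. The 8 markers summed to 19.1 to 27.9 CPM in control cerebella but reached 3198 CPM in a cKO+/- and 3068 CPM in a cKO-/- cerebellum. In hippocampus their sums reached 4954, 669 and 5107 CPM over the genotypes. At least 1 count of each endothelial, microglial, fibroblast and astrocyte marker was present in every genotype of both tissues. In cerebellum, thalamic markers summed to 108 to 141 CPM in controls, 103 to 240 in cKO+/- and 102 to 302 in cKO-/- mice. Brainstem markers summed to 2.59 to 17.8, 13.3 to 25.1 and 7.55 to 57.4 CPM. Midbrain markers summed to 11.4 to 22.4, 9.40 to 17.1 and 7.90 to 16.6 CPM. Cerebellar markers summed to 5087 to 6065, 3610 to 6497 and 3504 to 6090 CPM. No gene of these lists was called there. The part of these cells and regions in the differences of Cd36, Lpl and the perilipins was not tested.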

How the data were processed

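The authors made poly(A) libraries from dissected tissue and deposited raw counts per gene, whole numbers without normalization, made with STAR (250a). Per the labels the build is mm9, but the positions of 9 of 9 members in the deposited tables overlap RefSeq genes of GRCm38.p6, so GRCm38 coordinates are given. Strand setting, annotation release and treatment of multi-mapped reads are not given in the sources used here. The deposited table also gives each gene's exon length, from which FPKM was computed.

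The members, gene lists and tests were chosen with earlier results of these data known. The filter kept a gene when 6 or more libraries exceeded 1 CPM. Models were fitted in edgeR 4.0.16 (R 4.3.3) with TMM factors and the quasi-likelihood F-test in its legacy form, on sex and allele number, and p-values were adjusted by Benjamini-Hochberg over every gene tested, with a threshold of 0.05. Slopes are given per allele lost, with the SE taken as the log2 change over the square root of F. The study excluded an outlying RNA sample without naming it, and hippocampal fits here left out Sample_1160 after filtering and scaling over 18 libraries. Tissues were compared in 6 controls, with sex as covariate. Samples that share a number were taken to come from the same animal, which pairs the tissues. Over 13587 genes the deviations of the 2 libraries of an animal correlated with a median r of 0.212 (range -0.245 to 0.300, 17 animals). For 5 of the 17 animals the best match was with the animal's own library, so these deviations identify the pairs only in part. Log2 CPM used a prior count of 2, and correlations used 100000 permutations. Named genes were the 9 members, the 5 genes most like Plin4 and Cd36, up to 3 called genes with the largest change per list and tissue, and neighbours within 150 kb called in both tissues. Hdgfrp2 was named for its overlap, and Stap2 for its size, after values were seen. Replicates are separate animals. Alternatives were DESeq2 1.42.0, relative log expression factors, no filter, another quasi-likelihood form, no sex term, genotype as a factor, a number range covariate, the animal as block and leaving out each animal. The allele fit recovered known changes when tested on simulated data. The simulated counts held no effect of sex, number range or animal, so that check does not cover them. The total count limits precision most for Plin1, Plin5, Cd36 and cerebellar Lpl. The hippocampal result of the PPAR and fatty acid oxidation list is not reported here.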

Additional observations from a re-analysis of the deposited data

Results flagged for a closer look

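Of 54 groups of 5 or 6 libraries, 3 held a library far from the others by Dixon's criterion, which by chance marks about 1 in 20. Hippocampal Plin3 in cKO-/- mice was at 15.38 CPM in Sample_1385, with the next at 9.07 CPM, and the slope without that animal was -0.61. Hippocampal Cd36 in cKO+/- mice was at 5.374 CPM in Sample_1433, with the next at 2.89 CPM. Cerebellar Plin1 in cKO-/- mice was at 0.09991 CPM in Sample_1219, which is 3 counts, where the other 5 libraries had 0.

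The hippocampal cKO-/- library of Sample_1160, left out of the hippocampal fits, exceeded all 17 other libraries in Lpl (141.5 CPM, others up to 76.5), Pnpla2 (32.9 CPM, others up to 22.5), Lipe (12.81 CPM, others up to 10.8) and Plin1 (0.5389 CPM, others up to 0.399). Its Plin4 (2.0 CPM) and Cd36 (4.05 CPM) were within the range of the other cKO-/- libraries.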

How the results depend on the processing

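No member's allele slope changed sign under any alternative while called. Of 245 recomputed counts of called members, 229 stayed within 1.5 times. A count of 0 that stayed at 0 and a fall from 3 to 2 are both among the 229, so that figure is no measure of stability. The covariate for animal number range ended calls: members higher went from 2 to 0 in cerebellum and from 1 to 0 in hippocampus, and members lower from 3 to 0 in hippocampus. It also cut the genes called over the whole table from 1916 to 308 and from 636 to 68, and those of the tissue by allele interaction from 245 to 16. The cause was not tested. All 18 hippocampal libraries called 246 genes by allele and 6 by sex (130 with 17), and DESeq2 called 1056 by allele, 621 by sex in hippocampus, 17 by sex in cerebellum (7 with edgeR) and 12 departures from the midpoint in each tissue (3 and 0 with edgeR). Leaving out 1 animal gave 1 to 2 cerebellar members higher, Lpl being lost without any of Sample_936, Sample_1155, Sample_1170, Sample_1172, Sample_1190, Sample_1192, Sample_1371 and Sample_1385, and 1 to 3 lower, with Plin4 alone left without Sample_1190. In hippocampus 2 to 3 members were lower, Pnpla2 being lost without Sample_1129, Sample_1155, Sample_1190, Sample_1192, Sample_1219, Sample_1371 or Sample_1379, and in cerebellum Plin3 was lost also without Sample_1371, Sample_1379 or Sample_1385. Members lower in control cerebellum than hippocampus were 2 with the animal as replicate block (Plin4 and Lpl), 2 in cKO-/- mice (Cd36 and Lpl), 3 without a filter (Plin1, Plin5 and Lpl) and 1 to 2 when 1 control was left out. The block moved no other member past the threshold except Plin3. Depth limits Cd36 and cerebellar Lpl most, and values at 0 to 4 counts, as for Plin1, carry no comparison.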

Other observations

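Cd36 deviations from the sex and genotype means did not run together in the 2 tissues of an animal (r = -0.13 over 17 animals), with -0.80 over the 10 animals within the control number range and 0.42 over the 7 outside it. This split was seen after the values were known, and the difference was not tested.

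Stap2, a signalling adaptor gene within 150 kb of Plin4, fell in cerebellum (-0.77 ± 0.12 per allele lost, adjusted p = 0.000383, edgeR) and had -0.08 ± 0.12 in hippocampus (adjusted p = 0.723).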
